A study of Caenorhabditis elegans with 4 samples.

Results

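The SMC-4 peaks of chromosome IV were 288 of the 1997 peaks in the peak list made for the whole series, chosen by chromosome name alone, and 288 of the 1989 on the 6 nuclear chromosomes. SMC-4 is an ATPase of the structural maintenance of chromosomes family. Chromatin immunoprecipitation with sequencing (ChIP-seq), which maps the DNA that a protein contacts, was done on wild-type N2 embryos of Caenorhabditis elegans of mixed stage and mixed sex, grown at 20 °C. In the 2 ChIP samples SMC-4 was precipitated with an affinity-purified polyclonal antibody raised in rabbits, and the 2 input samples are the matching DNA without immunoprecipitation. All 4 samples shared strain, genotype, stage and fixation in 2% formaldehyde for 30 minutes. Peak lists were used for ChIP replicate 1 (169 peaks on IV of 1174 nuclear peaks) and ChIP replicate 2 (52 of 296), beside the whole-series list. Input values were not analysed here. Separate cultures are not stated for the replicates, and a difference between them may be technical.

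SMC-4 is a core subunit of condensin, a ring-shaped complex that compacts chromosomes for division and organises them between divisions. In worms it pairs with MIX-1 in both mitotic condensins, and the antibody does not tell these 2 complexes apart. The condensin of X-chromosome dosage compensation carries DPY-27 in its place, and that complex acts on X, while chromosome IV is an autosome. Worm chromosomes have no single centromere. The arms of worm autosomes are richer in repeats and in heterochromatin and recombine more, while the centres hold more of the widely expressed genes.

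Read counts are not part of the lists, and the depth behind a peak is unknown. Each peak carries 1 score, the peak caller's own value on a scale that is not stated, which is used only to rank peaks within a list. The whole-series list cannot be taken as independent of the replicate lists. No sequence or annotation of the files' build (WormBase WS220) was used here, so peaks are named by position on that build and no gene is assigned to them.

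The 288 peaks of chromosome IV had a median width near that elsewhere and were fewer per Mb than on the other chromosomes combined, though V, at 13.6 peaks per Mb, was sparser. Their median width was 224.5 bp, with quartiles of 175 and 301 bp and a range from 146 to 4924 bp. The other 5 chromosomes together had a median of 226 bp and the same minimum. IV carried 16.46 peaks per Mb (exact Poisson 95% interval 14.6 to 18.5), against 20.6 (19.6 to 21.6) on the other chromosomes. Its peaks covered 93456 bp, or 0.534% of the span, against 0.652% of the span elsewhere.

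The median score on IV was near that of the other chromosomes. The median score was 6.57 on IV, 6.35 on the other 5 chromosomes and 6.19 on the other 4 autosomes. Scores on IV ran from 1.31 to 53.44. No peak of IV was among the 20 highest scores of the series, nor was any of II or V, and X held 17 of them. Among the leading 100 were 19 peaks of IV, or 6.60% of the IV peaks. This compares with 4.76% of the peaks elsewhere and 5.03% of all nuclear peaks. The single chromosomes ran from 2.76% on I to 7.29% on X. Of the IV peaks, 36 or 12.5% were among the leading 200, against 164 or 9.64% of the peaks elsewhere and 10.1% of all nuclear peaks. These shares were not tested.

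The leading place of IV in the whole-series list lay right of the central section (the span is cut below into 3 sections of equal length). Only 1 of the replicates listed it, and neither had its highest IV score there. The peak chrIV:12447933-12448551 scored 53.44, ranked 1 on IV and 22 in the series. Replicate 1 had a peak there with a score of 1540, its rank 3 on IV, and a neighbour at chrIV:12446096-12447017 with 709, its rank 11. Replicate 2 listed nothing within 128.5 kb of the leading peak, although it listed peaks with much lower replicate 1 scores. A set of 3 whole-series peaks stood together there within 2.45 kb, and replicate 1 had a peak for each of them.

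The next peaks in rank were found in both replicates. The peak chrIV:654766-655036 scored 48.39, with 291 in replicate 1 and 158 in replicate 2. The peak chrIV:11400383-11401365 scored 37.57, with 301 in replicate 1 and 530 in replicate 2. This last place ranked 26 on IV in replicate 1 and 4 in replicate 2. Peaks at chrIV:4749905-4750169 (score 35.98), chrIV:11324154-11325092 (34.44) and chrIV:4725392-4725706 (31.81) followed.

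Of the 20 highest-scoring peaks of IV, all 20 were overlapped by replicate 1 and 15 by replicate 2. Their scores ran from 23.78 to 53.44, while the peak just below them scored 23.00. The 5 that replicate 2 did not overlap lay 119.7 to 329.8 kb from its nearest peak. They were the 2 peaks of the leading place and those at chrIV:13240491-13240714, chrIV:4390530-4390767 and chrIV:385419-385682. The 20 were 224 to 4924 bp wide with a median of 546 bp, and 8 lay in the left section, 6 in the central section and 6 in the right section. These sections held 95, 116 and 77 peaks in all. The leading whole-series peaks thus lay in each section, but unevenly, with 4 of the 20 between 11 and 12 Mb and 3 between 4 and 5 Mb. None of the 20 lay from 5 to 8 Mb, from 10 to 11 Mb or from 15 to 17 Mb. In the replicate 2 list the peaks ranked 1 and 3 to 7 on IV lay in the central section, and rank 2 lay in the left section.

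**Figure D1:**
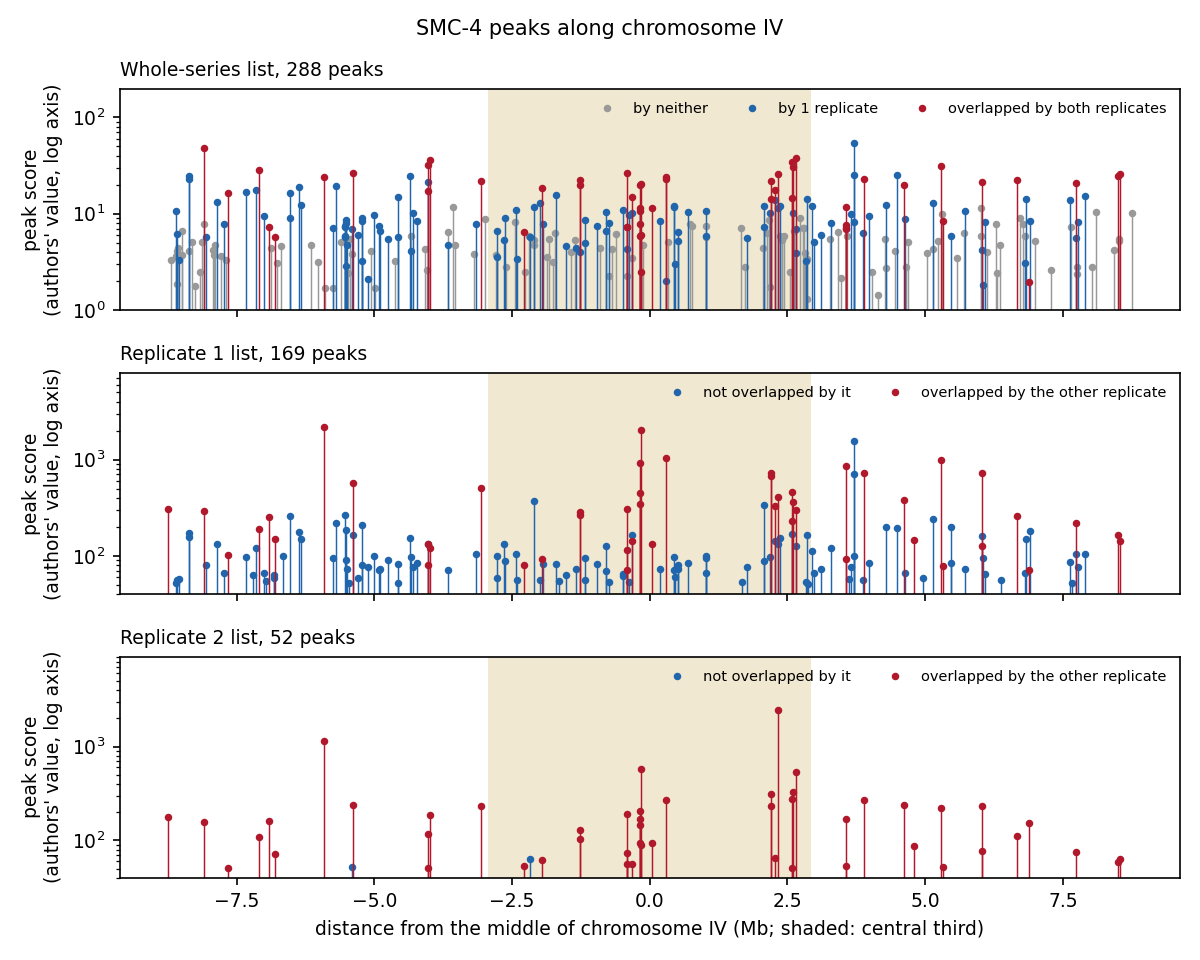
Each stem is 1 peak of chromosome IV, placed by its distance from the middle of the chromosome in Mb, with its score on a log axis; the panels are the whole-series list (288 peaks), the replicate 1 list (169) and the replicate 2 list (52), coloured by overlap, and the central section is shaded. The highest whole-series peak (53.44, right of the centre) has a replicate 1 peak of 1540 below it and no replicate 2 peak.

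The first question was whether single replicates recovered the IV peaks as often as the peaks of other chromosomes. Replicate 1 shared 1 bp or more with 165 of the 288 IV peaks, which is 57.3% (exact Clopper-Pearson 95% interval 51.4 to 63.1), against 57.4% (55.05 to 59.8) on the other 5 chromosomes and 57.4% of all nuclear peaks. Replicate 2 overlapped 55 IV peaks, or 19.1% (14.7 to 24.1), against 15.8% (14.1 to 17.6) elsewhere and 16.3% of all. Both replicates overlapped 52 IV peaks, or 18.1% (13.8 to 23.0), against 14.9% (13.2 to 16.7) elsewhere and 15.3% of all. Neither overlapped 120 IV peaks, or 41.67% (35.9 to 47.6), against 41.62% (39.3 to 44.0) elsewhere and 41.6% of all. At least 1 replicate overlapped 168 IV peaks, or 58.3%, against 58.4% elsewhere and 58.4% of all.

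None of these 4 shares of IV differed from the other chromosomes beyond counting error. The two-sided Fisher's exact test gave an odds ratio of 0.994 for replicate 1 (p adjusted over the 4 shares by Benjamini-Hochberg = 1) and 1.257 for replicate 2 (unadjusted p = 0.168, adjusted p = 0.369). For both replicates the odds ratio was 1.261 (Fisher's exact p = 0.184, adjusted p = 0.369), and for neither it was 1.002 (adjusted p = 1). Among the single chromosomes, the share overlapped by replicate 2 was 9.51% on I, 16.3% on II, 12.4% on III, 19.1% on IV, 22.8% on V and 17.9% on X, so IV stood second to V.

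Recovery was higher at higher scores. The IV peaks were ordered by score and cut into 4 classes. In the lowest class (1.31 to 4.29), replicate 1 overlapped 17 of 72 peaks (23.6%) and replicate 2 overlapped 3 (4.17%). In the next class (4.32 to 6.57) replicate 1 overlapped 26 and replicate 2 overlapped 5, and in the one above (6.57 to 10.78) the counts were 52 and 10. In the highest class (10.94 to 53.44), replicate 1 overlapped 70 of 72 (97.2%) and replicate 2 overlapped 37 (51.4%, Clopper-Pearson 39.3 to 63.4). Peaks of the other 5 chromosomes with scores in that top range were overlapped by replicate 1 in 95.1% and by replicate 2 in 42.6% of cases. The 42.6% lies within the interval of IV. In the lower classes, from the lowest up, their replicate 1 shares were 30.3%, 39.1% and 68.2%, against 23.6%, 36.1% and 72.2% on IV. For replicate 2 they were 6.01%, 4.22% and 9.09%, against 4.17%, 6.94% and 13.9% on IV. Median width on IV rose over the 4 classes from 180 to 325 bp, and its part in recovery was not tested. The median whole-series score on IV was 19.705 for peaks in both replicates, 8.37 for peaks in replicate 1 only and 4.50 for peaks in neither.

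**Figure D2:**
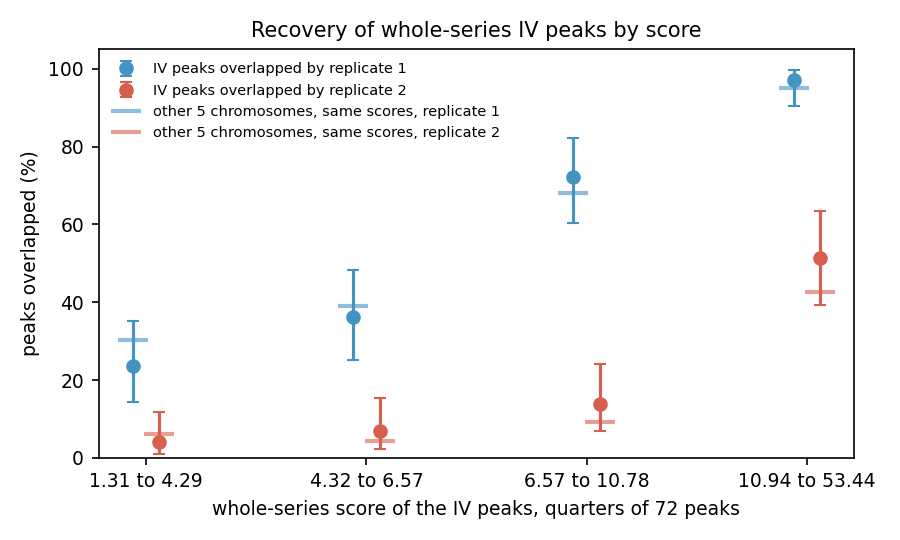
The points give the share of whole-series IV peaks overlapped by replicate 1 (blue) and replicate 2 (red) in 4 classes of score of 72 peaks each, with 95% Clopper-Pearson bars, and the dashes give the share for peaks of the other 5 chromosomes in the same score range. Replicate 1 reaches 97.2% and replicate 2 reaches 51.4% in the highest class.

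The 2 strongest IV peaks with no replicate peak were chrIV:5183760-5184001 (score 11.88, rank 63 on IV) and chrIV:14767749-14767925 (11.34, rank 70). The 3 whole-series IV peaks overlapped by replicate 2 but not by replicate 1 scored 7.03 or less, against an IV median of 6.57. They were chrIV:3338726-3338945 (7.03), chrIV:6576056-6576264 (5.79) and chrIV:9046160-9046318 (2.00). The last lay under the replicate 2 peak chrIV:9045753-9048773, which also overlapped a replicate 1 peak with a score of 1050. A few low-scoring peaks were nonetheless found in both replicates, the lowest being chrIV:15636119-15636294 with 1.95, where replicate 1 had a score of 71.0 and replicate 2 one of 155. Here the replicate peaks were 806 and 670 bp wide, while the whole-series peak was 176 bp.

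Seen from the replicate lists, most IV peaks of replicate 2 were contained in replicate 1. Of the 52 replicate 2 peaks on IV, 50 overlapped a replicate 1 peak, or 96.2% (Clopper-Pearson 86.8 to 99.5), against 92.2% of all nuclear replicate 2 peaks. Of the 169 replicate 1 peaks on IV, 48 overlapped a replicate 2 peak, or 28.4% (21.7 to 35.8), against 22.6% of all nuclear replicate 1 peaks. On the other chromosomes this last share ran from 13.9% on III to 32.2% on V. It was 4.65% in the lowest of 4 score classes of the IV replicate 1 peaks (50.77 to 72.1) and 71.4% in the highest (188 to 2177).

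Where both replicates listed an IV place, they ranked these places in a like order, with a few exceptions. Across the 48 replicate 1 peaks with a replicate 2 partner, Spearman's rho was 0.793 for score and 0.829 for width. The other 121 replicate 1 peaks on IV had no replicate 2 rank. Between the whole-series score and the best overlapping replicate score, rho was 0.492 for replicate 1 (165 peaks) and 0.464 for replicate 2 (55 peaks). These values describe peaks that share their libraries and base composition, and they carry no test. Of the 20 highest replicate 1 peaks on IV, 17 had a replicate 2 peak, and all 20 highest of replicate 2 had a replicate 1 peak. The 3 without one were both members of the leading place named above and chrIV:6645750-6646430 (score 371).

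A clear departure from the common order was the widest peak of IV, chrIV:11070843-11075766. It led IV in replicate 2 with a score of 2462 and ranked 2 in that list as a whole. In replicate 1 it scored 408 and ranked 17 on IV. In the whole-series list it scored 25.65 and ranked 12 on IV.

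**Figure D3:**
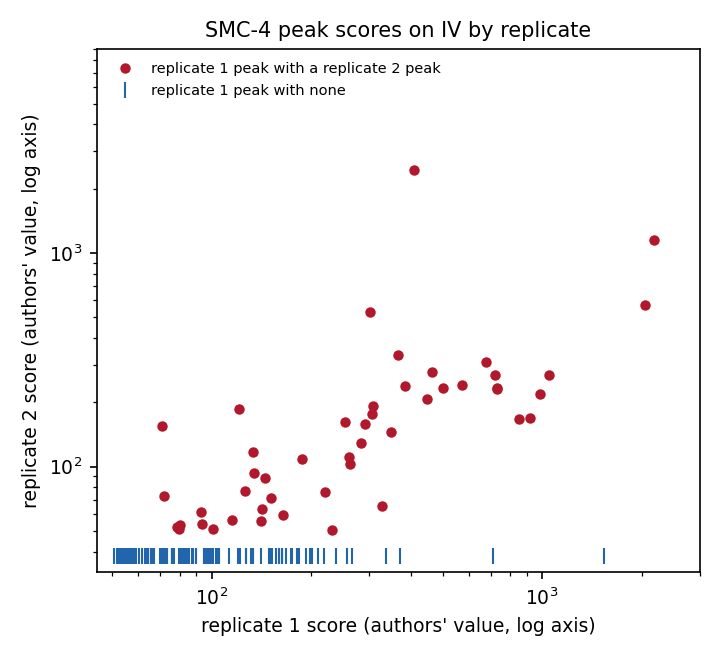
Each red point is a replicate 1 peak of IV with an overlapping replicate 2 peak (48 peaks), with the replicate 1 score on the x axis and the highest overlapping replicate 2 score on the y axis, both on log axes; blue ticks at the foot mark the 121 replicate 1 peaks with none. The tick farthest right is the peak of 1540 at the leading place, and the point highest up is the widest peak of IV.

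The second question was how the peaks were placed along the chromosome, between arms and centre. The span of IV, 17.49 Mb, ended with the last peak in the lists and was cut into 3 sections of 5.83 Mb. The central section held 116 of 288 peaks, or 40.3% (Clopper-Pearson 34.6 to 46.2), against 33.3% expected from its length and 33.3% of all nuclear peaks in the middle of their chromosome (two-sided exact binomial p = 0.0146). The left section held 95 peaks and the right section 77. The left share of the peaks in both outer sections, 55.2% (47.5 to 62.8), did not differ from 50% beyond counting error (exact binomial p = 0.195).

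The excess in the centre depended on how peaks were counted. Once peaks with gaps of at most 5 kb were merged, the centre held 79 of 219 places, or 36.1% (exact binomial p = 0.39). Without the 8 peaks of a single group it held 38.6% (exact binomial p = 0.066), and with the centre widened to 50% of the span it held 55.2% (exact binomial p = 0.0873). The test treats each peak as an independent draw, and neighbours are not independent. In replicate 1 the central section held 68 of 169 peaks (40.2%, exact binomial p = 0.0606). In replicate 2 it held 25 of 52 peaks (48.1%, 34.0 to 62.4, exact binomial p = 0.0275).

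Density was 19.9 peaks per Mb in the centre (exact Poisson interval 16.4 to 23.9), 16.3 in the left section (13.2 to 19.9) and 13.2 in the right section (10.4 to 16.5). Replicate 1 had 11.7 peaks per Mb in the centre, 9.60 on the left and 7.72 on the right. Replicate 2 had 4.29 in the centre, 2.23 on the left and 2.40 on the right. The central section also held more covered sequence, 43100 bp against 24857 bp on the left and 25499 bp on the right. On the other chromosomes the central section held 28.1% (X) to 38.6% (V) of the peaks.

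**Figure D4:**
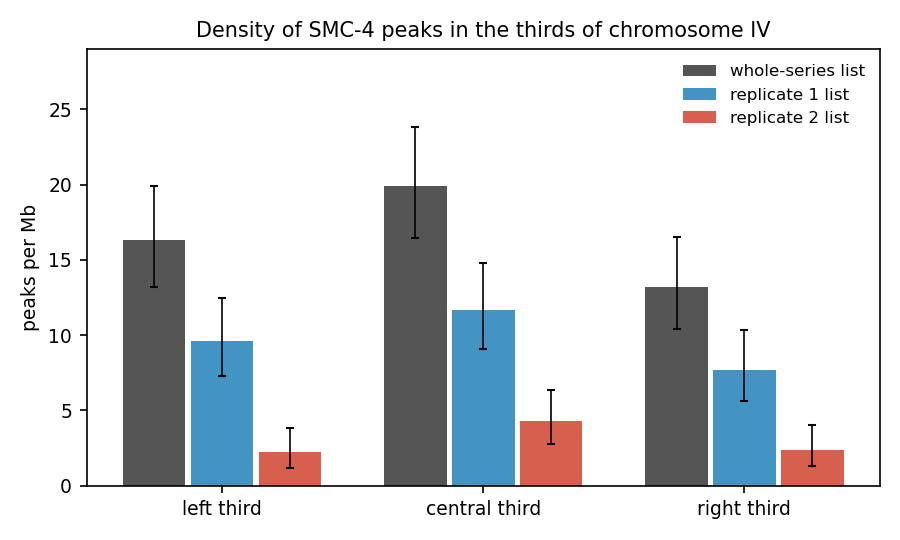
Bars give the number of SMC-4 peaks per Mb in the left, central and right sections of chromosome IV, of equal length, for the whole-series, replicate 1 and replicate 2 lists, with exact Poisson 95% intervals. The centre is the highest bar in each list (19.9, 11.7 and 4.29), and the intervals of neighbouring sections overlap.

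Peaks of the centre were recovered by replicate 2 more often in number, but the difference did not pass after adjustment. Replicate 2 overlapped 29 of 116 central peaks (25.0%) and 26 of 172 peaks in the outer sections (15.1%), an odds ratio of 1.872 (Fisher's exact p = 0.0465, adjusted over 3 shares p = 0.0941). Both replicates overlapped 27 central peaks (23.3%) and 25 outer peaks (14.5%, Fisher's exact p = 0.0628, adjusted p = 0.0941). Replicate 1 overlapped 61.2% of central and 54.7% of outer peaks (Fisher's exact p = 0.277, adjusted p = 0.277). With midpoints within 500 bp as the rule, the difference for replicate 2 passed (25.9% against 13.4%, Fisher's exact p adjusted over the 3 shares = 0.0256). With the centre taken as 50% of the span it passed as well (23.9% against 13.2%, Fisher's exact adjusted p = 0.046), and so did that for both replicates (22.6% against 12.4%, Fisher's exact adjusted p = 0.046). With an overlap of 50% of both peaks the difference for replicate 2 did not pass (17.2% against 12.2%, Fisher's exact adjusted p = 0.548), nor did it in the stronger 50% of peaks (37.5% against 28.2%, Fisher's exact adjusted p = 0.432). All these tests count neighbouring peaks as separate recoveries. A single central group, chrIV:8572772-8581731, gave 8 peaks overlapped by both replicates. At chrIV:9046160-9048691, 3 central peaks lay under 1 replicate 2 peak. The part of such groups in the difference was not tested.

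Median whole-series scores differed little between the sections. The median was 7.0 in the centre, 5.94 in the left section and 6.92 in the right section. In the whole-series list the highest values stood outside the centre, 53.44 on the right and 48.39 on the left, against 37.57 in the centre. The replicate lists differed in this. In replicate 1 the highest scores were 2177 on the left, 2048 in the centre and 1540 on the right. In replicate 2 the centre had the highest, 2462, against 1151 on the left and 270 on the right. Of the IV peaks among the 200 highest of the series, 12 were central, 13 on the left and 11 on the right. These were 10.3%, 13.7% and 14.3% of the peaks of their sections, against 10.1% of all nuclear peaks. The shares were not tested.

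In windows of 1 Mb, IV held 16.6 ± 6.06 peaks (mean ± SD, 17 full windows), with 11 in the emptiest and 29 in the fullest. The fullest ran from 11 to 12 Mb, with 29 peaks, 17 overlapped by replicate 1 and 6 by both. The window from 3 to 4 Mb held 26 peaks, 19 overlapped by replicate 1 but 1 by both. Windows at 0 to 1 Mb and 8 to 9 Mb held 25 each and differed in recovery. In the first, replicate 1 overlapped 8 and both replicates 1, and the median score was 4.41. In the other, replicate 1 overlapped 19 and both replicates 13, and the median score was 7.86. Of those 13, 8 belonged to 1 group of neighbouring peaks, which replicate 1 covered with 4 peaks, and 3 to another group. Equal numbers of whole-series peaks thus stood for unlike numbers of replicated ones, which were not all separate places. The lowest count of 11 was shared by the windows starting at 1, 2, 5 and 16 Mb.

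The longest stretch of IV without a whole-series peak lay in the middle of the chromosome. It was chrIV:9774263-10403359, 629.1 kb or 3.596% of the span, and held no peak of either replicate. The longest such stretch on the other chromosomes was 622.7 kb, on V, and 227 kb on X. The next on IV were chrIV:16024416-16382142 (357.7 kb), which held no replicate 2 peak and only the edge of a replicate 1 peak that overlaps the whole-series peak at its right end, and chrIV:5209682-5557147 (347.5 kb), with none in either replicate. The median distance between neighbouring peaks was 30.25 kb on IV, and 15 of 287 distances exceeded 200 kb. The central section thus held the longest empty stretch as well as the highest density.

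Peaks on IV often stood in groups. A neighbour within 5 kb was found for 107 of the 288 peaks, or 37.2% (Clopper-Pearson 31.6 to 43.0), against 37.8% (35.5 to 40.2) of peaks on the other 5 chromosomes and 37.7% of all nuclear peaks. Single chromosomes ran from 34.9% on II to 40.7% on V. The replicate lists gave 37.3% in replicate 1 and 40.4% in replicate 2 on IV, above the 22.3% to 28.1% and 15.2% to 37.04% of the other 5 chromosomes in the same lists. This order was not tested, and replicate 2 held only 52 peaks on IV.

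The 107 grouped peaks formed 38 groups, 19 of them of 3 or more peaks, with a median length of 3.32 kb. On the other 5 chromosomes 79 of 253 groups held 3 or more peaks. The largest group held 9 peaks on II and 8 on V. Of the 38 groups on IV, 20 lay in the central section, 11 in the left section and 7 in the right section. Among central peaks of IV 49.1% (39.7 to 58.6) had a neighbour within 5 kb, against 29.1% (22.4 to 36.5) of outer peaks. The same shares were not taken for the other chromosomes. Peak density was also higher in the centre (19.9 peaks per Mb against 14.7), and its part in the difference was not tested. Grouped peaks were wider than single ones (median 258 against 210 bp) and were overlapped by both replicates in 28.97% of cases (20.6 to 38.5), against 11.6% (7.33 to 17.2) of single peaks. A wide replicate peak can overlap several members of a group, so these members are not separate recoveries. The 165 IV peaks overlapped by replicate 1 shared 149 replicate 1 peaks, and the 55 overlapped by replicate 2 shared 49.

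The largest group on IV held 8 peaks over 8.96 kb at chrIV:8572772-8581731, and all 8 were overlapped by both replicates. Replicate 1 covered it with 4 peaks and replicate 2 with 6. Its members scored from 2.51 to 20.29 in the whole-series list, the best ranking 31 on IV. In replicate 1 the strongest part, chrIV:8578194-8581970, scored 2048 and ranked 2 on IV, and in replicate 2 chrIV:8578208-8581024 scored 573 and ranked 3. The place was thus among the leading 3 of IV in both replicate lists and outside the leading 30 of the whole-series list.

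The second group, chrIV:8331031-8336166, held 5 peaks, of which replicate 1 overlapped 4 and replicate 2 overlapped 3. Its best peak scored 26.47 and ranked 10 on IV. Of the groups of 4 peaks, the 3 with the highest total scores are named here; smaller groups with higher totals exist. At chrIV:12314543-12319287 all 4 peaks were overlapped by both replicates. At chrIV:16491514-16498320 replicate 1 overlapped 2 and replicate 2 overlapped 1, and at chrIV:9770880-9774262, at the edge of the longest empty stretch, replicate 1 overlapped 2 and replicate 2 none.

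Wide regions on IV made up about the same share of peaks as over the 6 chromosomes, and most recurred between replicates. Each replicate list held 6 IV peaks of at least 2 kb, which is 3.55% of the IV peaks in replicate 1 and 11.5% in replicate 2, against 3.58% and 11.5% of all nuclear peaks of these lists. In each list 5 of the 6 marked places that were also wide in the other. The 6 made up 20.6% of the base pairs covered on IV in replicate 1 and 45.1% in replicate 2. The widest, chrIV:11070814-11076001 in replicate 1 (5188 bp) and chrIV:11070865-11075993 in replicate 2 (5129 bp), differed by 51 bp at the start and 8 bp at the end. It was also the widest whole-series peak of IV, chrIV:11070843-11075766, at 4924 bp. Its limits lay close together in all 3 lists, while its rank differed.

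Another wide region was the strongest of replicate 1 on IV. It spanned chrIV:2828440-2830654 in replicate 1 (score 2177, rank 1 on IV) and chrIV:2828468-2830644 in replicate 2 (1151, rank 2), and the whole-series peak chrIV:2828580-2830574 scored 24.25 and ranked 19. At chrIV:12316254-12319451 the region was 3198 bp wide in replicate 1 (score 854) and 3103 bp in replicate 2 (score 168), and the whole-series list split it into 3 peaks with a best rank of 66. The remaining shared regions were both in the group of 8 peaks.

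The 2 regions that were wide in 1 replicate only behaved differently. Replicate 1 had chrIV:3206343-3209606 (3264 bp, score 266) over 4 whole-series peaks with a best score of 7.48, and replicate 2 listed no peak there. Replicate 2 had chrIV:9045753-9048773 (3021 bp, score 269), where the replicate 1 peak was 1845 bp wide and scored 1050. In the whole-series list 8 IV peaks (2.78% of 288) reached 1 kb, against 2.70% on the other 5 chromosomes and 2.71% of all nuclear peaks. All 8 were overlapped by both replicates, against 18.1% of all IV peaks and 15.3% of all nuclear peaks, which were not matched for width. They were not all separate recoveries, since chrIV:12316743-12318135 and chrIV:12318227-12319287 lay under the same peak in each replicate. Score and width were correlated on IV, with Spearman's rho of 0.523 over 288 whole-series peaks, 0.739 over 169 in replicate 1 and 0.690 over 52 in replicate 2, given as a description across peaks.

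The lists differed at the chromosome ends and at a few inner places. Both replicates listed a peak from the first base of IV, to position 257 in replicate 1 (score 305) and to 221 in replicate 2 (score 176), while the first whole-series peak was at chrIV:51286-51531, with a score of 3.30. All 6 chromosomes had a replicate peak starting at the first base in both lists, and the whole-series list lacked one on III and IV. At the right end the whole-series list had a peak at chrIV:17493464-17493824 (10.07), and the last replicate peaks ended 215106 bp (replicate 1) and 215116 bp (replicate 2) before its end. It was the last of the 288.

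In all, 20 of the 169 replicate 1 peaks and 3 of the 52 replicate 2 peaks of IV had no whole-series peak. The share found was 88.2% in replicate 1 (Clopper-Pearson 82.3 to 92.6) and 94.2% in replicate 2 (84.05 to 98.8), against 88.9% and 91.9% of all nuclear peaks of these lists. The 3 replicate 2 peaks were each found in replicate 1 as well. Beside the left end they were chrIV:13549323-13549604, whose replicate 1 partner began 3 bp later and ended 5 bp later and which lay 118942 bp from any whole-series peak, and chrIV:14781187-14781508, which lay 862 bp from one. Over the 6 chromosomes, 19 of the 273 replicate 2 peaks shared with replicate 1 had no whole-series peak, 8 of them on I and 3 on IV.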

How the data were processed

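The submitters' processing notes name BWA and the ce10 build. Peaks were called with MACS for each replicate and MACS v2 for the whole series, on build WormBase WS220, per the file headers and source columns. Cutoffs, the control and any pooling of replicates are not given in the labels or headers used. Peak positions and 1 score per peak, of unstated scale, are as deposited by the authors; the score was used within a list only, apart from rank correlations. Cutoffs and depth, which is unknown, set how many peaks a list holds.

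Overlaps, 3 equal sections of the span, groups (gaps of at most 5 kb) and 1 Mb windows came from scripts (Python 3.11.15; libraries scipy 1.17.1, pandas 2.3.3, numpy 2.4.6 and, for plots, matplotlib 3.10.9) that were checked on simulated lists. Peaks were assigned to sections and windows by midpoint. Intervals are 95% and cover counting error of peaks only. Tests were two-sided exact binomial and Fisher's exact tests over peaks, with Benjamini-Hochberg adjustment, and take peaks as independent; a threshold of 0.05 was used. Regions named were the 20 highest-scoring IV peaks, replicate peaks of at least 2 kb, the 5 largest groups, the fullest and emptiest windows, the longest empty stretches and the end peaks; other named places were chosen after their values were seen. The members, lists and tests were chosen with earlier results of these data known. Alternatives are given in the closing section.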

Additional observations from a re-analysis of the deposited data

How the results depend on the processing

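No paired analysis was possible because the input samples, which share the replicate numbers, had no peak list analysed here. The share of IV peaks in the central section (40.3%, exact binomial p = 0.0146) kept its direction in every alternative run, but did not pass with the central 50% of the span (55.2%), with boundaries at 4 and 13 Mb (55.2% against 51.4% of the span), with grouped peaks merged (36.1%) or in the replicate 1 list (40.2%). It passed in the stronger 50% of peaks (42.95%) and in replicate 2 (48.1%). A pair of settings chosen after seeing the data also ended the call: without the group of 8 peaks (38.6%), and without the fullest 1 Mb window lying wholly in the centre (34.6% against 29.3% of the span left). By base pairs the centre held 46.1%, and 43.1% without the widest peak. The left share of arm peaks turned to 48.1% in replicate 2, with no call in any setting.

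The difference between IV and other chromosomes in overlap with replicate 1 or with neither replicate changed sign without passing. For replicate 1 this happened with midpoints within 500 bp (55.2%), in the stronger 50% of peaks (83.2%) and against the other 4 autosomes (57.3%). For neither replicate it happened in these settings (42.7%, 16.1% and 41.7%) and with an overlap of 50% of both peaks (53.1%). The central share overlapped by replicate 2 passed with midpoints (25.9%) and with the central 50% (23.9%), and that for both replicates with the central 50% (22.6%). The replicate 2 difference did not pass with an overlap of 50% of both peaks (17.2%) or in the stronger 50% of peaks (37.5%). These tests count the members of a group as separate recoveries. The share overlapped by at least 1 replicate was 58.3%, and ran from 19.1% without replicate 1 to 57.3% without replicate 2. The share with a neighbour was 28.1% at 2 kb, against 23.3% to 31.6% on the other 5 chromosomes. At 10 kb it was 45.8%, below their 46.3% to 54.8%. With peaks within 1 kb merged it was 23.2%, against 18.7% to 29.2%. Wide regions numbered 10 in replicate 1 from 1.5 kb and 3 in replicate 2 from 3 kb. Where a value or a call changed, the cause was not tested. Depth is unknown, and replicate 2 held 52 IV peaks.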

Other observations

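In the stronger 50% of the whole-series peaks, 34.9% of IV peaks had a neighbour within 5 kb, and the other 5 chromosomes ran from 25.1% to 28.3%. In the full list IV lay inside the range of the others at 5 kb and below it at 10 kb (45.8% against 46.3% to 54.8%). This was seen after the values were known and was not tested.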
